A study of Homo sapiens with 24 samples.

Results

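Small nucleolar RNAs (snoRNAs) and small Cajal body RNAs (scaRNAs) were taken as the genes whose symbol starts with SNORA, SNORD or SCARNA and whose TPM (a length-corrected share of a library's transcripts, scaled to a fixed total) was at least 0.5 in at least 2 of the 6 libraries of KO cells and KO cells expressing SETD2. They were therefore chosen by their measured TPM in those 6 libraries, pooled over the groups. The rule kept 64 genes of 58884 in the table, out of 458 genes with these symbols. The 64 were 44 of 150 SNORA genes, 10 of 283 SNORD genes and 10 of 25 SCARNA genes. HEK293T cells derive from human embryonic kidney, and KO denotes HEK293T cells in which the SETD2 gene, which encodes the enzyme that sets the third methyl group on lysine 36 of histone H3, had been targeted. RNA was sequenced from 2 libraries labelled KO, 2 of KO cells expressing full-length SETD2 (SETD2 FL) and 2 of KO cells expressing SETD2 C (N3 in the sample labels), which spans residues 1404 to 2564. Both constructs were expressed transiently from a CMV promoter and RNA was taken 72 h after transfection, whereas the libraries labelled KO are described as untreated, so transfection and construct cannot be told apart in comparisons with KO. These 6 libraries form the second of 2 tables, and the first table holds 2 wild-type (WT) and 2 KO libraries, labelled untreated. The 14 ChIP-seq samples of the series were not analysed here.

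The snoRNAs fall into 2 large classes. C/D box snoRNAs (SNORD) guide 2'-O-methylation and H/ACA box snoRNAs (SNORA) guide pseudouridylation of ribosomal RNA, and a few, among them the SNORD3 genes that encode U3 and the SNORA73 genes that encode U17, act in the cleavage of the ribosomal RNA precursor. The scaRNAs carry the same kinds of boxes and guide modification of spliceosomal RNAs in Cajal bodies. Most human snoRNAs are cut from the introns of host genes after splicing and have no poly(A) tail, while U3 is transcribed from its own promoter.

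The annotated sequences are shown for a well-covered member of each class, for the shortest member, and for the members that were called in a comparison below. They come from GENCODE 44 on GRCh38 and are written 5' to 3' as DNA on the gene's own strand. Capitals mark boxes found by exact match on that strand. In C/D box members these were TGATGA starting within the first 20 bases and CTGA starting within the last 20. In H/ACA members this was ACA starting within the last 6 bases, and in the scaRNA also TGAG anywhere, the CAB box of Cajal body localization.

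SNORD17 lies at chr20:17962710-17962946 on the minus strand in an intron of SNX5 and also within OVOL2, SNORA73B at chr1:28508559-28508762 on the plus strand in an intron of SNHG3 and also within RCC1, and SCARNA13 at chr14:95533355-95533629 on the minus strand, where it overlaps an exon of the noncoding RNA SNHG10. SNORD89, the shortest member, lies at chr2:101272936-101273049 on the minus strand and overlaps an exon of RNF149.
SNORD17: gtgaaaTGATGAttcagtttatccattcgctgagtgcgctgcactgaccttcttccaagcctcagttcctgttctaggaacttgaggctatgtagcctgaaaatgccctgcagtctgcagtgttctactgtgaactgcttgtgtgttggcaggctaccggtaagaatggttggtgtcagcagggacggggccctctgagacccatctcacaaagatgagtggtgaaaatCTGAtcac
SNORA73B: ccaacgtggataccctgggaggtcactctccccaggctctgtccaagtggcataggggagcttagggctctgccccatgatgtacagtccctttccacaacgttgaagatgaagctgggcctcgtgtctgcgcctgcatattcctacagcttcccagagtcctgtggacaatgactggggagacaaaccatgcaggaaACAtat
SCARNA13: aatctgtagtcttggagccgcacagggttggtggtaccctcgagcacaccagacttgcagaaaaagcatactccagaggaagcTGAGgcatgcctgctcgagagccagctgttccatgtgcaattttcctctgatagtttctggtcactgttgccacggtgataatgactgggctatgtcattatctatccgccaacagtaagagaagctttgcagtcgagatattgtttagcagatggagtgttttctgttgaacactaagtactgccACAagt
SNORD89: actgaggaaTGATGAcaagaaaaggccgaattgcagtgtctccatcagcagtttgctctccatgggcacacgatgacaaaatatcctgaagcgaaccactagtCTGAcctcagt

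The other members called in a comparison were all of the H/ACA class. SNORA27 lies at chr13:27255401-27255526 on the plus strand in RPL21, SNORA50C at chr17:64146339-64146471 on the plus strand in SNHG25, SNORA23 at chr11:9428773-9428954 on the plus strand in IPO7, SNORA71C at chr20:38429670-38429803 on the minus strand in SNHG17 and SNORA2C at chr12:48654382-48654518 on the minus strand in KANSL2. SNORA11D at chrX:52190621-52190748 (plus strand, in MAGED4) and SNORA11E at chrX:52063347-52063474 (minus strand, in MAGED4B) have the same sequence in every base, so reads cannot be assigned to one or the other.
SNORA27: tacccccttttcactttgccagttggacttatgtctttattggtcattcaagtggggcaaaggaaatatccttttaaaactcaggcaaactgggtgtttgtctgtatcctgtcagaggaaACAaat
SNORA50C: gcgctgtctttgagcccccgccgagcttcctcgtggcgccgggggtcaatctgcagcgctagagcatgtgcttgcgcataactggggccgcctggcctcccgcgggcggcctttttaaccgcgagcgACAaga
SNORA23: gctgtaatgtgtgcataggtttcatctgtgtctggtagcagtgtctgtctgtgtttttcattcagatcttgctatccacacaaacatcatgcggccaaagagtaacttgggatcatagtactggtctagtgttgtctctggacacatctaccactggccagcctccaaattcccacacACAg
SNORA71C: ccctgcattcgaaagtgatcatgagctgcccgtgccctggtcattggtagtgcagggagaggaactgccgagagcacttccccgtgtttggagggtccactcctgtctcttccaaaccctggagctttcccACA
SNORA2C: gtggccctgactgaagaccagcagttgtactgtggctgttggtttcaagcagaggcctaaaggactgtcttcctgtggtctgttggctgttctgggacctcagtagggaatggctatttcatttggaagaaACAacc
SNORA11D: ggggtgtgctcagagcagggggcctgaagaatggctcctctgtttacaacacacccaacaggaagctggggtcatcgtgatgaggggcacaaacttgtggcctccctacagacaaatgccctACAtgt
SNORA11E: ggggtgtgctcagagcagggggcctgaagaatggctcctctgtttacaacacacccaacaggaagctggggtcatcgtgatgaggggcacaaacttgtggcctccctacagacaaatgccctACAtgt

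The terminal ACA was present in 40 of the 44 H/ACA members, or 90.9%, and in 89.3% of all 150 SNORA genes listed. Both C/D boxes in these exact letters were found in 4 of the 10 C/D members, or 40%, against 67.1% of the 283 SNORD genes listed. TGAG was found in 9 of the 10 Cajal body members, against 72% of the 25 listed, and it was also in all 10 C/D members and 38.6% of the H/ACA members, so these letters alone did not mark the Cajal body RNAs. Such matches describe letters only.

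Genes under 110 nt had no TPM above 0, while longer genes were mixed. None of the 259 listed genes shorter than 110 nt had a TPM above 0 in any of the 6 libraries, and 258 of these were SNORD genes. From 120 to under 150 nt, 69 of 158 genes were above 0 and 43 met the rule. At 150 nt or more, 26 of 36 were above 0 and 20 met the rule. The median annotated length was 82 nt for the listed SNORD genes, 134 nt for the SNORA genes and 140 nt for the SCARNA genes, while the members ranged from 114 nt (SNORD89) to 791 nt (SNORD3B-2) with a median of 136.5 nt. U8, encoded by SNORD118 (134 nt), and U13, encoded by SNORD13, were listed at 0 in all 10 libraries. A value of 0 here is no statement about the cell, since reads from so short an RNA may not have been kept.

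**Figure D1:**
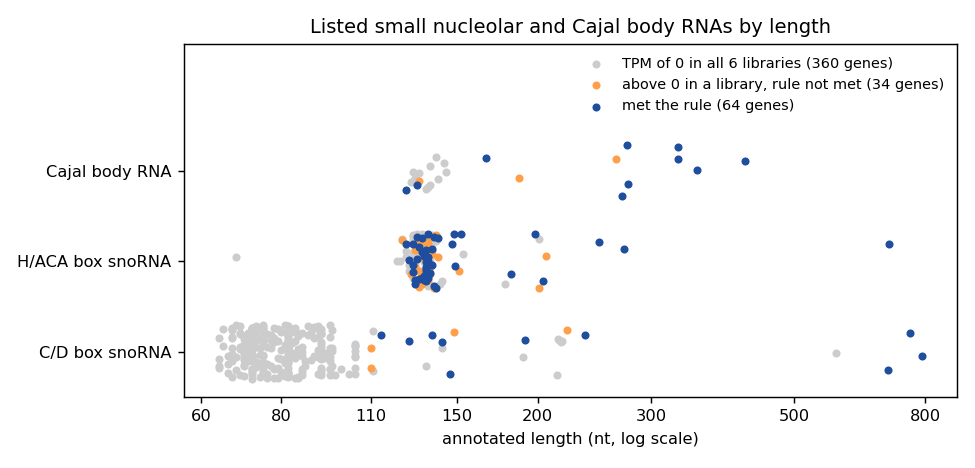
Annotated length in nt (x axis, log scale) of the 458 listed genes in 3 classes (rows, points spread vertically only for visibility). Grey points were at 0 in all 6 libraries, orange points were above 0 without meeting the rule and blue points are the 64 members. Nearly all SNORD genes lie left of 110 nt, where every point is grey.

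The members just inside the rule were SCARNA7 (the scaRNA U90), with a second-highest TPM of 0.5, and SCARNA5 (U87), with 0.56. Just outside it were SNORD91B, with 0.49, and SCARNA6, with 0.40. By mean TPM over the 6 libraries the highest C/D members were SNORD22 (68.6), SNORD17 (22.1), SNORD3A (19.3), SNORD89 (19.2) and SNORD15B (5.96). The highest H/ACA members were SNORA70 (11.8), SNORA52 (10.5), SNORA77B (10.0), SNORA73B (8.89) and SNORA63 (7.22), and the highest Cajal body RNA was SCARNA22 (8.61), which lies in NSD2. Of these 11 members, only SNORD17, SNORD3A and SNORA73B were above 0 in all 6 libraries.

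The deposited values moved in steps. Genes of the same length often shared one identical lowest TPM in a library. At 134 nt the shared value was 4.27 in KO replicate 2 and 5.5 in SETD2 C replicate 2, where SNORA5A, SNORA71C and SNORA71D all had it. SNORA22, also of 134 nt, had 8.53 in KO replicate 2 and 16.5 in SETD2 C replicate 2. Such a step was read as the TPM of 1 sequenced fragment, and its size over length was fitted from these shared values. The fitted TPM of 1 fragment in KO replicate 2 was 12 at 114 nt, 4.28 at 134 nt, 0.41 at 237 nt and 0.281 at 275 nt. A member's TPM divided by this value gives estimated fragments, which carry no interval here. In members of 120 to under 420 nt, and with values under 6 fragments, 95 of 154 values (61.7%) fell within 0.1 of a whole number, 66 of them at 1 fragment. The members' own shared values were among those that set the curve. This nearness, above all at 1 fragment, was therefore partly built in and is no separate check of the reading. In SCARNA9 (a guide of U2 modification, 353 nt) the estimates were 7.01 and 6.02 fragments in KO, 9.04 and 8 with SETD2 FL, and in SETD2 C 6.99 and 3.99. Among values that are not whole were those of SNORA29, which overlaps an annotated exon of TCP1. Others were those of the identical SNORA11D and SNORA11E, each at 0.26 of a fragment in both KO libraries.

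**Figure D2:**
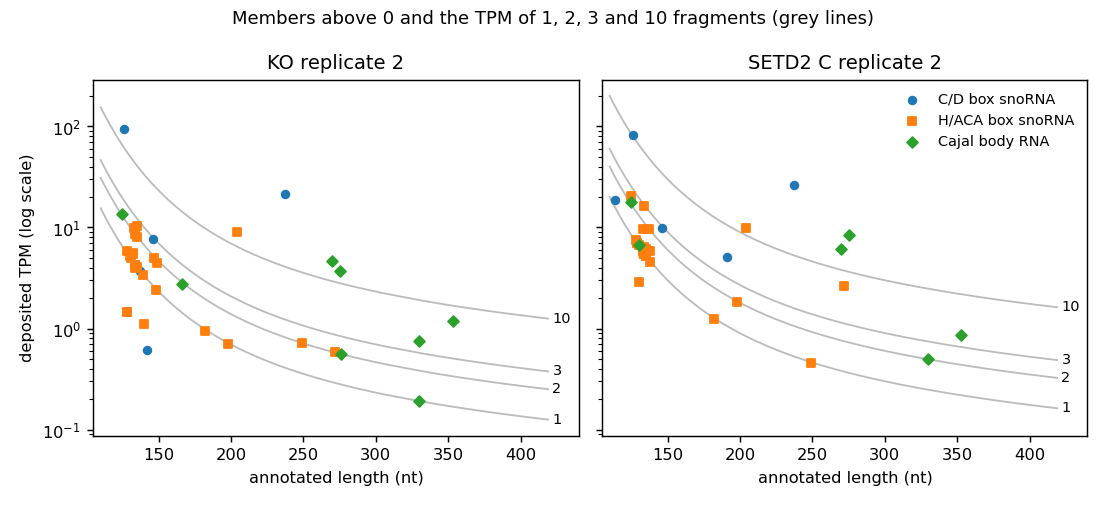
Deposited TPM (y axis, log scale) against annotated length in nt for the members above 0 and shorter than 420 nt in KO replicate 2 and SETD2 C replicate 2. Grey lines give the fitted TPM of 1, 2, 3 and 10 fragments. Most H/ACA members (squares) sit on or near the lines of 1 and 2 fragments, while SNORD17, at 237 nt and a TPM of 21.3 and 26.4, lies above the line of 10.

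Most members rested on very few fragments. Of the 384 values of the 64 members in the 6 libraries, 155 (40.4%) were listed at 0. Of the 229 above 0, 99 were estimated at under 1.5 fragments, 47 at 1.5 to 3.5, 33 at 3.5 to 10, and 50 at 10 or more. Their median was 1.99 fragments. In 40 of the 64 members no library reached 3.5 fragments. A total of 53 members were listed at 0 in at least 1 of the 6 libraries and 35 in at least 3. Only SNORD17, SNORD3A, SNORD3B-1 and SNORA59B had 10 or more fragments in all 6 libraries. SNORA59B is annotated at 701 nt inside an intron of SLC47A1, far longer than the other H/ACA members.

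The 2 libraries of a group differed more in the members than over all genes tested. The median absolute log2 difference between replicates was 1.01 in KO, 1.03 with SETD2 FL and 1.09 with SETD2 C over the 64 members. Over all 17579 genes tested, which were not matched to the members in length or fragments, it was 0.109, 0.110 and 0.105. Among member pairs with a mean of under 2 fragments the median difference was 3.26 (103 pairs of 51 members). It was 0.80 from 2 to under 10 fragments (28 pairs of 20 members) and 0.40 at 10 or more (27 pairs of 10 members). SNORD22, whose product U22 acts in 18S ribosomal RNA maturation, had the highest mean TPM of all members, and its libraries lay far apart. Its TPM was 94.1 and 27.7 in KO, 58.1 and 0 with SETD2 FL, and in SETD2 C 150 and 81.9. At 126 nt these were estimated at 15.2, 4.15, 10.5, 0, 23.9 and 10.2 fragments, and the groups overlapped.

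**Figure D3:**
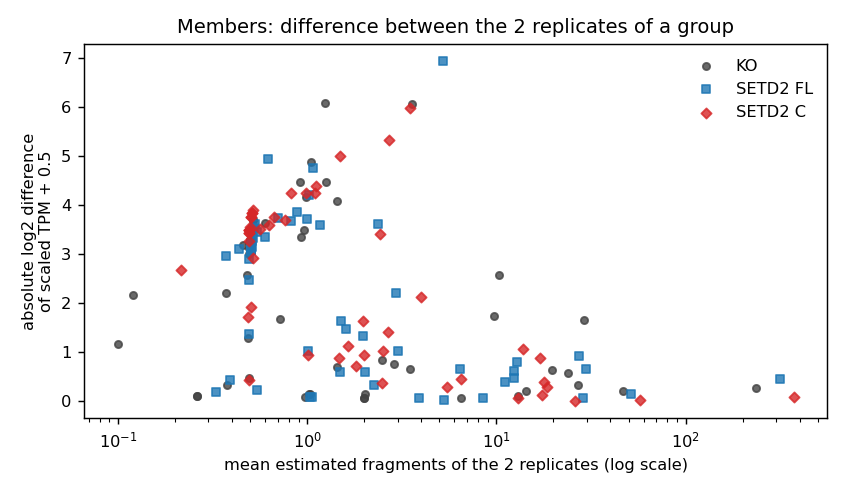
Absolute log2 difference of scaled TPM + 0.5 between the 2 replicates of a group (y axis) against their mean estimated fragments (x axis, log scale), for members above 0 in at least 1 of the 2. Colours and shapes are the groups KO, SETD2 FL and SETD2 C. Differences of 3 or more sit mostly under 2 fragments, and at 10 or more fragments the median is 0.40.

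Limma was run on log2(scaled TPM + 0.5) over genes of every type, and a gene was called when it moved 2-fold or more with p at or under 0.05 after Benjamini-Hochberg adjustment. The test does not use the fragment estimates. With 2 libraries a side, the smallest p of an exact permutation test is 0.333. In bulk RNA, fewer cells that make an RNA and less of it per cell cannot be told apart. The replicates are separate samples by their labels, and where they are not separate cultures the p-values measure technical spread. For SETD2 itself the libraries labelled KO had a TPM of 11.99 and 12.15, the SETD2 FL libraries 439 and 422, and the SETD2 C libraries 1329 and 1264. It was 12.6 and 14.8 in the WT libraries and 16.2 and 16.3 in the libraries labelled KO of the same table, so its level does not check the KO label.

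None of the 4 members with 10 or more fragments in all 6 libraries was called in the comparisons of these libraries. Of all genes tested, 0.0341% were called for SETD2 FL against KO, 4.23% for SETD2 C against KO and 3.98% for SETD2 C against SETD2 FL. No call among 4 genes therefore says little. Of the 4 members, SNORA59B had a TPM of 0.64 and 3.04 in KO, 1.61 and 1.58 with SETD2 FL, and in SETD2 C 1.40 and 1.06. Its groups overlapped. SNORD17 had a TPM of 21.3 and 18.1 in KO, 18.4 and 21.4 with SETD2 FL, and in SETD2 C 26.9 and 26.4, estimated at 41.0 to 64.8 fragments a library. Both SETD2 C libraries lay above the other 4, but by little. Its log2 fold change was 0.29 with SETD2 C relative to KO (SE 0.09, adjusted p = 0.058, limma) and -0.005 with SETD2 FL (adjusted p = 0.988, limma). SNORD3A, the most abundant U3 gene here, had 16.2 and 13.2 in KO, 20.1 and 15.1 with SETD2 FL, and in SETD2 C 24.7 and 26.3. Again both SETD2 C libraries were above the rest, with a log2 fold change relative to KO of 0.64 (SE 0.16, adjusted p = 0.0274, limma), under the 2-fold limit. SNORA73B and SCARNA12 are not among the 4, with 9.92 and 8.58 fragments in SETD2 FL replicate 4. SNORA73B had 8.93 and 10.3, 8.61 and 6.31, and 9.28 and 9.87 in the same order. The groups KO and SETD2 C overlapped (log2 fold change of -0.15, SE 0.16, adjusted p = 0.53, limma). SCARNA12 (270 nt, overlapping an exon of PHB2) had 4.64 and 7.38, 4.53 and 2.47, and 5.52 and 6.15, with SETD2 FL lowest (log2 fold change relative to KO of -0.74, SE 0.30, adjusted p = 0.343, limma).

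The other U3 genes among the members did not follow SNORD3A. SNORD3B-1 had a TPM of 1.74 and 1.28 in KO, 1.89 and 1.07 with SETD2 FL, and in SETD2 C 1.29 and 0.85, and the groups overlapped. SNORD3B-2 had 1.62 and 0.91, 1.81 and 0.75, and 0.25 and 0.54, so both SETD2 C libraries were lowest. Its log2 fold change with SETD2 C relative to KO was -1.05 (SE 0.36, adjusted p = 0.0719, limma), which was called under 3 of 17 other settings. The U3 genes share long runs of sequence, 188 nt between SNORD3A and SNORD3B-1 and 266 nt between SNORD3B-1 and SNORD3B-2. The longest run, 473 nt, was shared by SNORD3A and SNORD3C. The separate values of the U3 genes therefore depend on how reads were divided among them. SNORD3C and SNORD3D did not meet the rule.

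**Figure D4:**
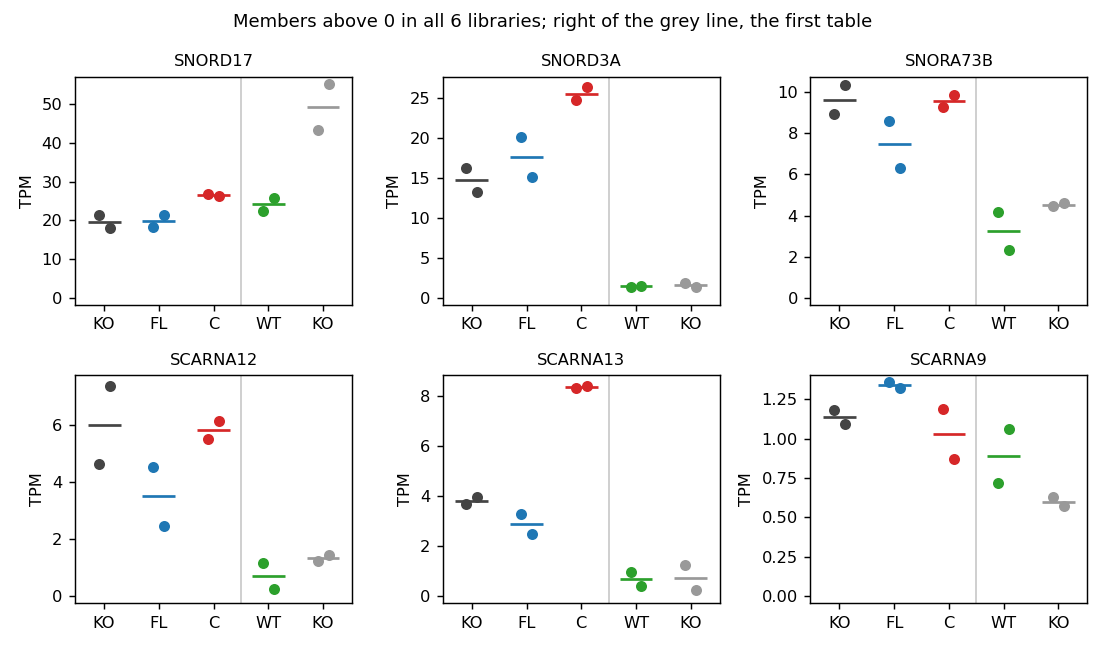
Deposited TPM (y axis, from 0) in each of the 10 libraries for 6 members above 0 in all 6 libraries of the second table, with KO, FL (SETD2 FL) and C (SETD2 C) left of the grey line and WT and KO of the first table right of it. Points are libraries and bars the mean of 2. SCARNA13 is highest in the 2 SETD2 C libraries (8.32 and 8.40), and SNORD17 is highest in the 2 KO libraries of the first table (43.3 and 55.2).

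With SETD2 FL relative to KO, 1 of the 64 members was called, against 6 of 17579 genes tested (0.0341%). This was SNORA27. Neither KO library had a value above 0, and the SETD2 FL libraries had 11.3 and 14.9, estimated at 2.05 and 2.46 fragments. It was again at 0 in both SETD2 C libraries. It met the membership rule only through the SETD2 FL libraries, so its difference had to be large, and it is given as a description. RPL21, in which SNORA27 overlaps an exon, had a TPM of 3181 and 3224 in KO and 2729 and 2837 with SETD2 FL. SNORA11D and SNORA11E, identical in sequence and so a single measurement, were at 0 in both SETD2 FL libraries. Each missed the call with an adjusted p of 0.0517 (limma), and each met the membership rule only through the KO libraries. Without scaling, under quantile normalization and with rescaled TPM, 1 member was called higher and 2 lower. Leaving out KO replicate 2 gave 2 calls. The median log2 fold change of the members was -0.05, and that of all genes tested was 0.002.

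With SETD2 C relative to KO, no member was called higher and 3 were called lower, or 4.69% of 64. Over all genes the share called was 4.23%, with 664 higher and 79 lower. The members' share lay near the background only with both directions pooled, since their 3 calls were all lower and most calls over all genes were higher. The 3 were members at 0 in both SETD2 C libraries, which cannot come out higher, so their direction is not read further. SNORA50C had a TPM of 9.85 and 17.0 in KO and 9.80 and 3.37 with SETD2 FL, while both SETD2 C libraries had 0. It is the only member at 0 in both SETD2 C libraries and above 0 in the other 4, where it was estimated at 0.77 to 3.52 fragments, so it met the membership rule through the KO and SETD2 FL libraries alone, and its call is given as a description. Its host SNHG25, which shares exonic sequence with it, had a TPM of 63.0 and 104 in KO, 34.9 and 93.9 with SETD2 FL, and in SETD2 C 9.23 and 46.6 (log2 fold change of -2.07 with SETD2 C relative to KO, SE 0.76, adjusted p = 0.0839, limma). The other calls, SNORA11D and SNORA11E, are a single measurement. Each had a TPM of 1.45 and 1.60 in KO and 0 in the other 4 libraries, less than 1 fragment in any library, and met the membership rule only through the KO libraries. With both SETD2 FL libraries also at 0, the difference from KO was not particular to SETD2 C. Leaving out KO replicate 2 gave 6 calls, 1 of them higher, leaving out SETD2 C replicate 1 gave 7, 1 of them higher, and leaving out SETD2 C replicate 2 gave 6, all lower. Without scaling 2 members were called higher and 4 lower, and with rescaled TPM 1 was higher and 3 lower. The median log2 fold change of the members was 0.03, and that of all genes 0.05.

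SCARNA13, the tandem H/ACA scaRNA U93, was the called member with the most fragments. Its TPM was 3.67 and 3.95 in KO, 3.30 and 2.49 with SETD2 FL, and in SETD2 C 8.32 and 8.40. The SETD2 C libraries did not overlap the other 4. The estimates were 13.0, 13.1, 13.1, 9.03, 29.2 and 23.0 fragments in that order. As group means this was 3.81 ± 0.198, 2.90 ± 0.573 and 8.36 ± 0.057 (SD, n = 2). Its log2 fold change with SETD2 C was 1.28 relative to SETD2 FL (SE 0.14, adjusted p = 0.00208, limma), which was called, and 0.90 relative to KO (SE 0.14, adjusted p = 0.00663, limma), under the 2-fold limit. SNHG10, whose exon it overlaps, had a TPM of 22.5 and 24.4, 20.3 and 18.4, and 34.9 and 39.8 in the same groups, with log2 fold changes of 0.80 relative to SETD2 FL (SE 0.10, adjusted p = 0.0025, limma) and 0.51 relative to KO. GLRX5, on the other strand at this place, had log2 fold changes of -0.07 and -0.18. Reads of SCARNA13 and of the SNHG10 exon cannot be told apart in these values. Across the alternative settings the change relative to SETD2 FL ranged from 0.77 to 1.48 and was called in 17 of 18. In the first table SCARNA13 had 0.98 and 0.43 in WT and 1.24 and 0.24 in KO, at 1.03 to 6.05 fragments, and the groups overlapped.

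With SETD2 C relative to SETD2 FL, 1 member was called higher and 3 lower, or 6.25% of 64, and 3.98% of all genes tested were called (614 higher and 86 lower). SCARNA13 was the one higher. SNORA27 and SNORA50C, at 0 in both SETD2 C libraries, were 2 of those lower and are again a description. SNORA23 was the third, with a TPM of 3.43 and 3.78 with SETD2 FL (3.91 and 3.93 fragments), 0 and 1.23 with SETD2 C (0 and 0.97 fragments), and 0.95 and 1.03 in KO (log2 fold change relative to SETD2 FL of -2.21, SE 0.50, adjusted p = 0.0182, limma). Its adjusted p was 0.0806 without SETD2 FL replicate 3 and 0.0827 without SETD2 FL replicate 4 (limma), and the call was lost. Leaving out SETD2 C replicate 1 gave 8 called members, 4 higher and 4 lower, and leaving out SETD2 C replicate 2 gave 6, 3 higher and 3 lower. This comparison and the 2 above share libraries, so their values are not independent.

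**Figure D5:**
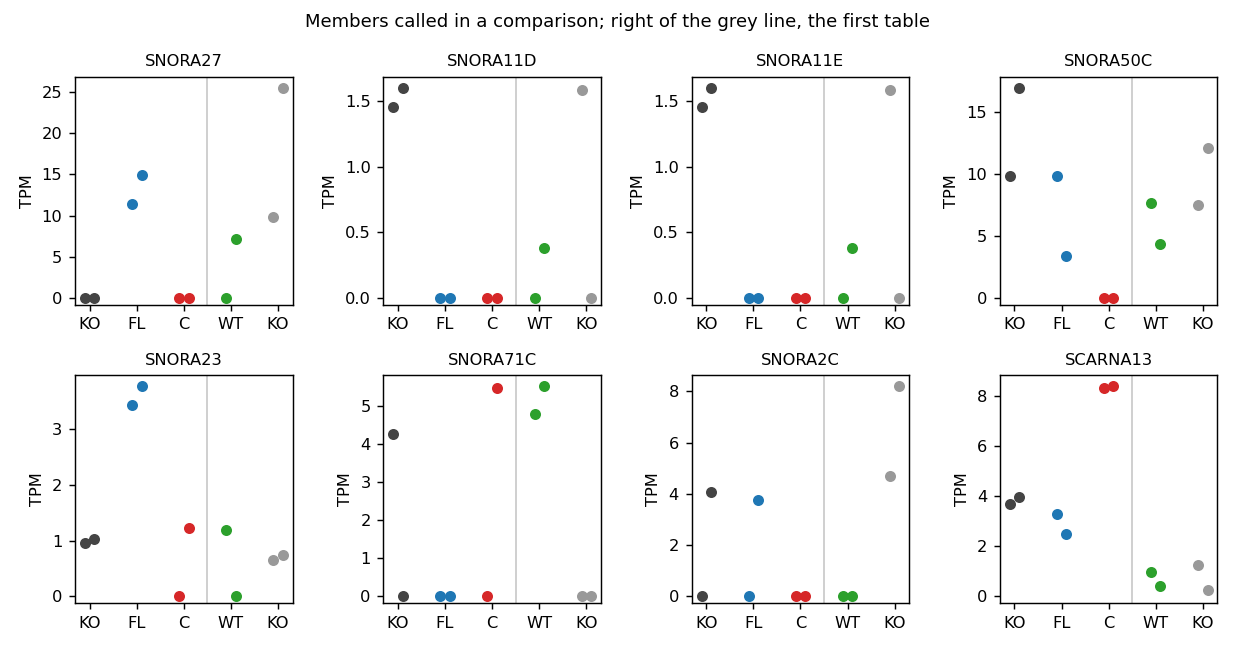
Deposited TPM (y axis, from 0) in each of the 10 libraries for the 8 members called in a comparison, with KO, FL (SETD2 FL) and C (SETD2 C) left of the grey line and WT and KO of the first table right of it. Each point is a library. Apart from SCARNA13, every called member has at least 1 library at 0, and SNORA11D and SNORA11E have the same values.

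None of the other 9 Cajal body RNAs was called. Of all genes tested in the second table, 0.0341% were called for SETD2 FL against KO, 4.23% for SETD2 C against KO and 3.98% for SETD2 C against SETD2 FL. At such shares, no call among 9 genes says little. SCARNA9 had a TPM of 1.18 and 1.09 in KO, 1.36 and 1.32 with SETD2 FL, and in SETD2 C 1.19 and 0.87, with overlap between KO and SETD2 C (log2 fold change of -0.20, SE 0.17, adjusted p = 0.389, limma). SCARNA2, which guides methylation of U2, ranged from 0.25 to 1 over the 6 libraries with overlapping groups. SCARNA10 (U85, with both box types) had 0.76 and 0.21, 0.86 and 0.19, and 0.19 and 0. SCARNA5 had 0.56 and 0.60 in KO, 0.50 and 0 with SETD2 FL and 0 in both SETD2 C libraries, where each value above 0 was close to 2 fragments, so it met the rule through KO and SETD2 FL alone. SCARNA7 had 0.19 and 0, 0.52 and 0.19, and 0 and 0.50. SCARNA1 had 2.76 and 1.5 in KO, 0 in both SETD2 FL libraries and 1.47 and 0 with SETD2 C. SCARNA22 (125 nt) had 13.7 and 0, 12.5 and 0, and 7.79 and 17.7, and SCARNA23 (130 nt) had 0 and 5.75, 0 and 5.26, and 0 and 6.71, or 1 fragment in 1 library of each group.

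Among the H/ACA members of high mean TPM, the 2 libraries of a group often lay far apart. SNORA70, overlapping an annotated exon of RPL10, had 0 and 31.6 in KO, 4.40 and 0 with SETD2 FL, and in SETD2 C 28.5 and 6.16. SNORA63, overlapping an annotated exon of EIF4A2, had 33.1 in SETD2 C replicate 1 and 0 in replicate 2, against 0 to 5.49 elsewhere. SNORA77B, overlapping an annotated exon of RANBP1, had 0 and 1.66, 25.9 and 1.74, and 10.3 and 20.6. SNORA52, overlapping an annotated exon of RPLP2, had 3.94 and 0 in KO, 20.4 and 21.8 with SETD2 FL, and in SETD2 C 10.7 and 6.35. Its groups did not overlap. Its log2 fold change with SETD2 FL relative to KO was 3.87 (SE 0.91, adjusted p = 0.203, limma), at 0 to 5.34 fragments. SNORD89 had 0 and 32.1, 0 and 14.7, and 50.1 and 18.5, where 50.1 corresponds to 4.13 fragments, or 5.16 with normal fragment lengths. At 114 nt SNORD89 lies below the fitted lengths. SNORD15B (in an intron of RPS3) ranged from 0 to 12.9.

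Summed over the 64 members, the TPM was 287 and 246 in KO, 267 and 220 with SETD2 FL, and in SETD2 C 445 and 371. The members thus made up 0.0220% to 0.0445% of a library. Both SETD2 C sums lay above the other 4, also without the 3 members of highest mean TPM (243 and 236, against 155 to 188). The sum of C/D members was 277 and 170 with SETD2 C and 76.4 to 147 in the other 4 libraries. The Cajal body sums overlapped, with 24.7 and 40.8 against 12.4 to 27.7. In estimated fragments the 64 members held 684 and 539 with SETD2 C and 450 to 670 in the others. These ranges overlapped, but the estimates are not corrected for the TPM that a fragment was worth in each library. They therefore cannot be compared between libraries as levels, and their overlap does not bear on the TPM sums. A fragment was worth most in SETD2 C replicate 2, with 5.54 TPM at 134 nt against 3.82 to 4.61 in the other 5 libraries. The 74 replication-dependent histone genes, most of whose mRNAs, like the snoRNAs, lack a poly(A) tail, summed to 669 and 715 with SETD2 C and 251 to 335 in the other 4. The 31 other short RNAs listed summed to 1746 and 744 with SETD2 C and 655 to 1038 in the others. Whether the share of such RNAs kept in a library had a part in the members' sums was not tested.

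Detection did not rise with these sums. Members above 0 numbered 43 and 36 in KO, 37 and 43 with SETD2 FL, and in SETD2 C 30 and 40. H/ACA members above 0 numbered 26 and 22, 23 and 27, and 15 and 25. Genes of any type above 0 numbered 24306 to 25440 in the KO and SETD2 FL libraries and 27104 and 26139 with SETD2 C.

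Most members lay inside a host gene on the same strand, 58 of 64, in 51 different hosts. Of these 58 members, 47 had a protein-coding host and 11 a long noncoding one. An annotated host exon overlapped 29 of them and 29 lay in host introns only. Of the 50 hosts tested, limma called none in any of the 4 comparisons. Of all genes tested, 0.0341%, 4.23%, 3.98% and 1.34% were called, in the order of comparisons that follows. At an unadjusted p under 0.05 (limma) there were 14 hosts for SETD2 FL against KO and 33 for SETD2 C against KO. There were 26 hosts for SETD2 C against SETD2 FL and 7 for WT against KO. The shares of all genes tested that reached it were 14.2%, 43.2%, 45.1% and 22.4% in that order. SNX5, the host of SNORD17, had log2 fold changes of -0.12 with SETD2 FL and -0.12 with SETD2 C relative to KO. SNHG17, which holds SNORA71A, SNORA71B, SNORA71C and SNORA71D, had 0.35 and 0.25.

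The proteins that build and process these RNAs were covered by 46 tested genes, among them the 4 C/D box core proteins, the 4 H/ACA core proteins, 12 assembly factors, 12 Cajal body factors and 14 processing and decay factors. Limma called none of the 46 in any comparison, to be read beside the shares of all genes called that are given for the hosts. An unadjusted p under 0.05 (limma) was reached by 4 of the 46 for SETD2 FL against KO and 24 for SETD2 C against KO. It was reached by 26 for SETD2 C against SETD2 FL and 17 for WT against KO. Of all genes tested, 14.2%, 43.2%, 45.1% and 22.4% reached it in that order. The median log2 fold changes of the 46 were 0.04, -0.14, -0.16 and -0.15 in that order. Of the 31 other short RNAs, 14 were tested in the second table. RN7SK, the RNA of the 7SK particle that holds back transcription elongation, was called in SETD2 C against SETD2 FL (55.1 and 39.1 against 19.5 and 17.8, log2 fold change of 1.17, SE 0.18, adjusted p = 0.00474, limma). Between WT and KO 7 were tested and RNU1-2 was called, at 2.67 and 3.04 in WT and 0 in both KO libraries. RNU1-2 passed the filter only through the WT libraries, so its call is given as a description. Its copy RNU1-1 had the same 2.67 and 3.04 in WT, and 3.88 and 0 in KO. Of 9 markers of HEK293T cells, all passed the filter, and NEFL and NEFM were higher in SETD2 C than in either other group by the same call. The 5 markers of other cell types summed to at most 0.6 TPM in any library.

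The libraries of the first table, which the membership rule did not use, hold fewer of the members. There 46 of the 64 were above 0 in at least 1 of the 4 libraries and 27 passed the filter of a TPM of at least 0.5 in 2 libraries. Summed TPM was 132 and 153 in WT and 123 and 245 in KO. Levels cannot be tested across the tables, which were made separately. SNORD3A had a TPM of 1.32 to 1.82 in the 4 libraries, against 13.2 to 26.3 in the second table, while SNORD17 had 22.5 to 55.2 against 18.1 to 26.9.

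Between WT and the libraries labelled KO of the first table, 2 of the 27 members tested were called, and the share over all 16456 genes tested was 1.34%. SNORA71C had 4.79 and 5.54 in WT and 0 in both KO libraries, or 1.98 and 2.09 fragments. SNORA2C had 0 in both WT libraries and 4.71 and 8.21 in KO, or 2.09 and 3.19 fragments. Each passed the filter only through the group where it is above 0, so these 2 are a description. SNORD17, with far more fragments, had 22.5 and 25.9 in WT and 43.3 and 55.2 in KO, estimated at 80.3, 84.5, 148 and 165 fragments, and the groups did not overlap. Its log2 fold change for WT relative to KO was -0.88 (SE 0.13, adjusted p = 0.0342, limma), under the 2-fold limit. Its side of both limits turned on single libraries. Without KO replicate 1 the log2 fold change was -1.06 and passed the limit (adjusted p = 0.0399, limma), without KO replicate 2 it was -0.69 (adjusted p = 0.124, limma), without WT replicate 1 it was -0.89 (adjusted p = 0.151, limma) and without WT replicate 2 it was -0.86 (adjusted p = 0.0904, limma). With all 4 libraries the adjusted p (limma) was 0.145 when genes above 0 in 1 library were kept and 0.0858 without the eBayes trend. SNX5, in whose intron it lies, had 194 and 218 in WT and 247 and 248 in KO (log2 fold change of -0.13, adjusted p = 0.308, limma). SNORD22 had 8.17 and 6.84 in WT and 12.9 and 18.4 in KO without overlap, at 1.84 to 4.53 fragments (log2 fold change of -0.87, SE 0.22, adjusted p = 0.107, limma). SNORA73B had 4.17 and 2.34 in WT and 4.45 and 4.61 in KO, and SCARNA9 had 0.72 and 1.06 in WT and 0.63 and 0.57 in KO, neither of which passed the test.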

How the data were processed

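RNA-seq libraries of HEK293T cells were prepared by the authors with ribosomal RNA depletion and poly(A) enrichment and sequenced as paired reads. Per the labels and the methods, the authors aligned reads to hg38 with STAR 2.6.1c and Ensembl gene models and deposited TPM values from RSEM 1.3.0, which divides shared reads among genes. The strand setting of counting and the depth are not given in the sources used here. The authors' own gene tests covered protein-coding and lncRNA genes and were not used.

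The members and lists were chosen with earlier results of these data known. Groups came from the sample labels. Each library was scaled to the median ratio of its protein-coding and lncRNA genes at 1 TPM or more in all libraries. Genes of every type were tested where 2 or more libraries reached 0.5 TPM, with limma 3.58.1 in R 4.3.3 on log2(scaled TPM + 0.5) (eBayes with a mean trend). There were 17579 genes in the table with SETD2 FL and SETD2 C (the second table) and 16456 in that with WT (the first). Changes of low genes are understated on this scale, and none is given against a group at 0. The 6 libraries of the second table shared a fit. The procedure was tested on simulated data with normal spread on the log scale. Those data lacked the zeros and steps of the members, so the check does not cover such values.

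Annotation, lengths and sequences came from GENCODE 44, in which all 458 listed genes were found by identifier. The TPM of 1 fragment was fitted over 120 to under 420 nt from the lowest value shared by 2 or more single-transcript genes of a length. The fit was tested on simulated fragments drawn from the fitted curve itself, which does not test the curve's form. This step was noticed and built after the data were seen. Normal, gamma and lognormal fragment lengths were tried, with 64.9%, 66.9% and 68.2% of shared values within 3% of the curve over both tables, and the lognormal was kept for that reason. Under these 3 distributions the highest estimate for SCARNA13 was 29.4, 29.3 and 29.2 fragments, and for SNORD22 25.7, 24.5 and 23.9. Estimates for members outside the fitted lengths, among them SNORD89, the SNORD3 genes and SNORA59B, are extrapolations. The estimates entered no test.

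Named members were every SCARNA member, the U3, U8 and U13 genes, the 5 SNORA and 5 SNORD genes of highest mean TPM, up to 5 calls in each direction per comparison, and the genes at the edge of the rule. Other members, and the sequences printed, were chosen after their values were seen. The alternatives were other pseudocounts, filters, scalings, gene types and eBayes settings, a fit of the groups compared, a replicate block in the first table and each library left out. A pseudocount of 4 was added after the data were seen.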

Additional observations from a re-analysis of the deposited data

How the results depend on the processing

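With 2 libraries a group and 1 to 3 fragments behind most members, the number of members called moved with the settings. For SETD2 FL against KO it was 1, and 3 at a pseudocount of 1, with a TPM above 0 in 1 library as the filter, without scaling, under quantile normalization, with TPM rescaled without short RNAs, mitochondrial genes and SETD2, without the eBayes trend, and with only protein-coding genes, lncRNAs and members. It was 4 in a fit of the 2 groups and 0 of 9 where each library had to reach 0.5 TPM. For SETD2 C against KO it was 3, and 0 of 9 with that last filter, 6 without scaling, 5 under quantile normalization, 6 in a fit of the 2 groups, 6 with only protein-coding genes, lncRNAs and members, and 5 by the adjusted p alone. For SETD2 C against SETD2 FL it was 4, with 1 of 9 under the last filter (SCARNA13) and 7 in a fit of the 2 groups. For WT against KO it was 2, with 1 for a TPM above 0, 0 of 10 under the last filter and 7 without scaling. Leaving out each library in turn gave 1 to 2, 4 to 7, 5 to 8 and 2 to 3 calls in the 4 comparisons. Calls over all genes tested also moved with the settings. For SETD2 C against KO they numbered 743 of 17579, 960 without scaling, 543 under quantile normalization and 5330 by the adjusted p alone. With every library at 0.5 TPM or more they numbered 445 of 15018. For SETD2 FL against KO they numbered 6 of 17579, 15 without scaling and 16 in a fit of the 2 groups. The cause of these moves was not tested. Without scaling, the median of all genes moved from 0.05 to 0.18 for SETD2 C against KO.

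The replicate numbers of the first table gave no pairing by their labels. The deviations of WT and KO libraries with the same number had a correlation of 0.068, and the replicate block gave 3 called members, 2 higher and 1 lower, in place of 2. No paired analysis was possible in the second table because its groups share fewer than 2 numbers.

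Without the 3 members of highest mean TPM, the summed TPM of the members was 155 and 188 in KO, 171 and 183 with SETD2 FL, 243 and 236 with SETD2 C, and 99.47 and 119.1 in WT of the first table. With scaled TPM, WT replicate 1 of that table had 150 in place of 132. At a pseudocount of 4, SCARNA13 fell to 0.77 between SETD2 C and SETD2 FL and was not called.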
